A study of Homo sapiens with 8 samples.

Results

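Interferon-stimulated genes and RNA sensors were followed in 2 human liver cancer lines. The members were 46 genes listed by symbol. No measured value entered the rule that picks their probe sets, but the list was drawn up with earlier results of these data known. A probe set counted for a member when the platform annotation gave it that gene as its single symbol. By this rule 44 of the 46 genes were measured, of 18132 genes measured in all, through 119 of the 44988 probe sets with 1 symbol. USP18 and STAT2 were not analysed here.

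Hep3B and Huh7.5.1 are established hepatocellular carcinoma lines, and both were kept in DMEM or MEM with serum. Hep3B is known to carry integrated hepatitis B virus sequence. Huh7.5.1 descends from Huh7.5, a subline of Huh7 selected for growth of hepatitis C virus that is known to carry an inactivating change in the RNA sensor RIG-I. The groups used were Hep3B with the solvent DMSO, Huh7.5.1 with DMSO and Huh7.5.1 with 10 μM CU27, each for 48 h and with 2 biological replicates per group. CU27 is a code name, and the compound is not described further in the labels. The study asks which transcripts this compound alters in liver cancer cells. The Hep3B CU27 columns were not used, because at every probe set they were linear functions of the Hep3B DMSO columns to a tolerance of 1e-06 and held no measurement of their own.

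Cells make interferon when sensors such as RIG-I and MDA5 (encoded by IFIH1) meet foreign or misplaced RNA and signal through MAVS to the factors IRF3 and IRF7. Secreted type I and type III interferons act on receptors that use JAK kinases and lead to assembly of the complex ISGF3, which contains STAT2 and IRF9 and binds the interferon-stimulated response element (ISRE). Interferon gamma acts through the gamma-activated site and induces IRF1, which can bind ISRE-like sequences on its own. The target genes encode RNA-binding blockers of translation, membrane and capsid restriction factors, the ubiquitin-like protein ISG15, and the sensors and factors of the pathway itself. Hepatocytes respond to type I and type III interferon.

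The bases 170 to 1 before the annotated start are shown for 10 members, on the gene's own strand and 5′ to 3′, from the RefSeq promoter table (GRCh38.p14). They were chosen to set members that rose with CU27 beside members that were tested and not called. Capitals mark matches on either strand to the ISRE core (GAAA, any 2 bases, GAAA) or to the gamma-activated site TTCNNNGAA, and overlapping matches run together. The first 5 rose with CU27 and hold the ISRE core, and the next pair rose and holds the gamma-activated site letters without the ISRE core. IFIT5, of which another match crosses the start and is not marked, and IFI6 hold the ISRE core and were not called. OAS1 was not called and, of the searched patterns, holds the gamma-activated site letters only. Near its start it also holds GAAA, 1 base and GAAA, a spacing that the search letters leave out. A stretch without the core letters thus does not show that a gene lacks an ISRE.
ISG15 (chr1:1013327-1013496, plus strand): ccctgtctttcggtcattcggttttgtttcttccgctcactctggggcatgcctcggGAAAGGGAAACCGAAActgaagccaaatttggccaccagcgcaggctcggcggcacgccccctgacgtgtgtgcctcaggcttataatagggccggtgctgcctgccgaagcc
HERC5 (chr4:88456949-88457118, plus strand): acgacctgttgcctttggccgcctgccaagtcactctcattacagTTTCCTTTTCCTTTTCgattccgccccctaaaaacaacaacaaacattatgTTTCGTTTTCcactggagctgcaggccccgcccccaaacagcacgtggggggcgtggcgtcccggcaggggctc
IFIH1 (chr2:162318685-162318854, minus strand): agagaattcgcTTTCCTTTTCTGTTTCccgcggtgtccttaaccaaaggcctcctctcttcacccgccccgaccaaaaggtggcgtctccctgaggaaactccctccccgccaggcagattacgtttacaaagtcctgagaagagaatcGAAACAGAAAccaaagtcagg
IFIT1 (chr10:89392453-89392622, plus strand): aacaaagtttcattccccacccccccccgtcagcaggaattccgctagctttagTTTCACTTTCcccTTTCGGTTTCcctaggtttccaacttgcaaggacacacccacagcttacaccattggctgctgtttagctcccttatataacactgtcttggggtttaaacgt
IFIT3 (chr10:89327827-89327996, plus strand): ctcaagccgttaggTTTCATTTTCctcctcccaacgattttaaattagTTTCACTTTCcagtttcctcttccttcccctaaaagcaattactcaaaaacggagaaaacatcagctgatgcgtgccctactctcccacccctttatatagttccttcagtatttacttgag
IRF1 (chr5:132490774-132490943, minus strand): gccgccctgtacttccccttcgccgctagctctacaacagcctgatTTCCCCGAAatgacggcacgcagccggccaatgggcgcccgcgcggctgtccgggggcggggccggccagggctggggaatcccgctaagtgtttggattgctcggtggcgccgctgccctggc
IRF9 (chr14:24161095-24161264, plus strand): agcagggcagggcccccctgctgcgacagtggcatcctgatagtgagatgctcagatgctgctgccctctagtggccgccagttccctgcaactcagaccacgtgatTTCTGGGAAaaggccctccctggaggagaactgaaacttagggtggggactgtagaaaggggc
IFIT5 (chr10:89414398-89414567, plus strand): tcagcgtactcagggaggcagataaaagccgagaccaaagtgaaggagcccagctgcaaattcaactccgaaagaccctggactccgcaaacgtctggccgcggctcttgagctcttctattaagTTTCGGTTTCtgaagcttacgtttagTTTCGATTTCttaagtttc
IFI6 (chr1:27672193-27672362, minus strand): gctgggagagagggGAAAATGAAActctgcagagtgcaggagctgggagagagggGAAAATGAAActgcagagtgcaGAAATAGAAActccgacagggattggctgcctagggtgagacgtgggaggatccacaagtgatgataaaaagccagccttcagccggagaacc
OAS1 (chr12:112906792-112906961, plus strand): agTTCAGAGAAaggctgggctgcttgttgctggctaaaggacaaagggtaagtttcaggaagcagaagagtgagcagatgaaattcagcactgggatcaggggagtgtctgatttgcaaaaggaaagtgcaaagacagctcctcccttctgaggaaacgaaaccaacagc

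The search covered the whole RefSeq window of 300 bases, 250 before and 50 after the start, on both strands. A window was given for 36 of the 46 members. The ISRE core was found in 24 of them (66.7%), against 1195 of all 27305 genes with a window (4.38%). The gamma-activated site letters, which read the same on both strands, were in 10 of the 36 (27.8%), against 2560 genes (9.38%). Windows of the members thus held both motifs more often than the windows of all genes, and this is a description of genes long known as interferon targets. With the shorter core GAAANNGAA the members' count was again 24, while the share of all genes was 9.86%. By single windows, some genes having several, the shares of all 35116 windows were 3.57% for the ISRE core and 7.66% for the gamma-activated site.

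The ISRE core occurred 45 times in the member windows, with first bases from position -196 to 24 relative to the start and a median of -94. More than 1 match was found in 15 members. HERC5, IFI6, IFIH1 and IFIT5 had 3 each, and IFIT3, which has 2 windows, had 4. PARP9 and DTX3L, neighbours read in opposite directions, shared 1 matched position. Of the 9 members that rose with CU27 and had a window, 7 held the ISRE core (ISG15, HERC5, IFIH1, IFIT1, IFIT3, MX1 and PARP14). The gamma-activated site was found in 4 (IRF1, IRF9, MX1 and PARP14), and no window of these 9 lacked both. Of the 15 members that were tested, not called and had a window, 9 held the ISRE core, 5 held the gamma-activated site, and UBE2L6, RIGI and ADAR held neither. Among the 11 members below the detection floor with a window, 8 held the ISRE core. Members with the ISRE core were thus found among those that rose, those not called and those too dim to test.

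**Figure D1:**
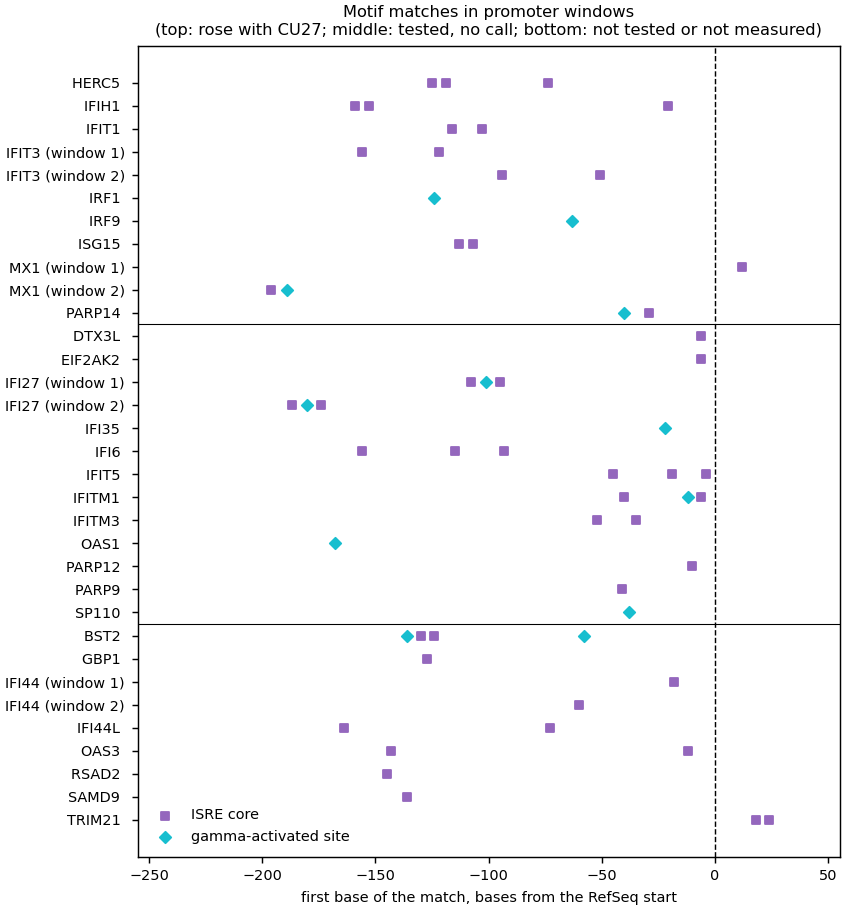
Positions of the ISRE core and the gamma-activated site in the RefSeq promoter windows of the members, in bases from the annotated start (x axis), with 1 row per window of the members that hold a match, in blocks of members that rose with CU27 (top), that were not called (middle) and that were not tested (bottom). Most ISRE core matches lie upstream of the start, with a median of -94, and they occur in members that rose, members not called and members below the floor.

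Expression was read on Affymetrix arrays as deposited log2 signals, and 1 log2 unit is a doubling of the signal. A gene was tested when at least 1 of the 3 group means reached the floor, log2 6.11, which is the middle value of all non-control probe sets. Of the 44 measured members, 31 reached it (70.5%), against 62.8% of all genes. The within-group correlations over probe sets were from 0.991 to 0.994. Array medians were 5.82 to 5.85 in Hep3B and 6.23 to 6.27 in Huh7.5.1 over both treatments, and this gap touches the comparison of the lines. Both Hep3B columns held the same value at 1086 probe sets, 3 of them of members, for a reason not known here. The number of arrays limits the precision, since arrays carry no read depth. All 7 measured hepatocyte markers reached the floor, led by ALB at 14.11 to 14.44. Of 9 leukocyte markers 3 had a group mean at the floor (CD14, CD68 and LYZ), and PTPRC, the pan-leukocyte marker CD45, read 2.76 to 3.55. Of 8 fibroblast and endothelial markers only PDGFRB had a group mean at the floor.

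With CU27, 11 of the 31 tested members rose, 0 fell and 20 were not called in Huh7.5.1 cells (limma, threshold of 0.05 for the adjusted p). Over all 11383 tested genes 12.6% rose and 12.1% fell. At an unadjusted limma p under 0.05, 12 members were higher with CU27, DTX3L being the added one, and 0 were lower. The share of all tested genes at this unadjusted limit was not counted, here or for the unadjusted counts below. The members that rose were ISG15 and its ligase HERC5, the sensor IFIH1, the factors IRF1 and IRF9, the blockers of viral RNA IFIT1, IFIT2 and IFIT3, the GTPases MX1 and GBP2, and PARP14. In each of the 11, both CU27 arrays lay above both DMSO arrays. That is no separate support, since the calls rest on the same arrays, and the share over all genes was not counted. IFIH1, IFIT1, IFIT2, MX1 and the uncalled IFI27 reached the floor only in the CU27 group. Their entry to the test itself thus required a high CU27 level. All of them but IFI27 are in the count of 11, and a count without them was not made. RIGI and IRF7 reached the floor only in Hep3B. With no floor, where every measured gene entered, 10 of the 44 measured members rose and 0 fell, and 1337 of all 18132 genes rose. The median log2 difference over all 44 measured members was 0.25, and 0.04 with group means raised to the floor, against 0.01 and 0 over all genes. The call held under every alternative that gave a value for 8 of the 11, while those of IFIH1, IRF9 and PARP14 were lost under some. All probe sets of ISG15, IFIT3 and GBP2 are of types that can detect several transcripts. The alternative that left such probe sets out therefore gave no value for these genes. Arrays of whole cultures cannot tell a change in every cell from a change in the share of cells that respond.

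**Figure D2:**
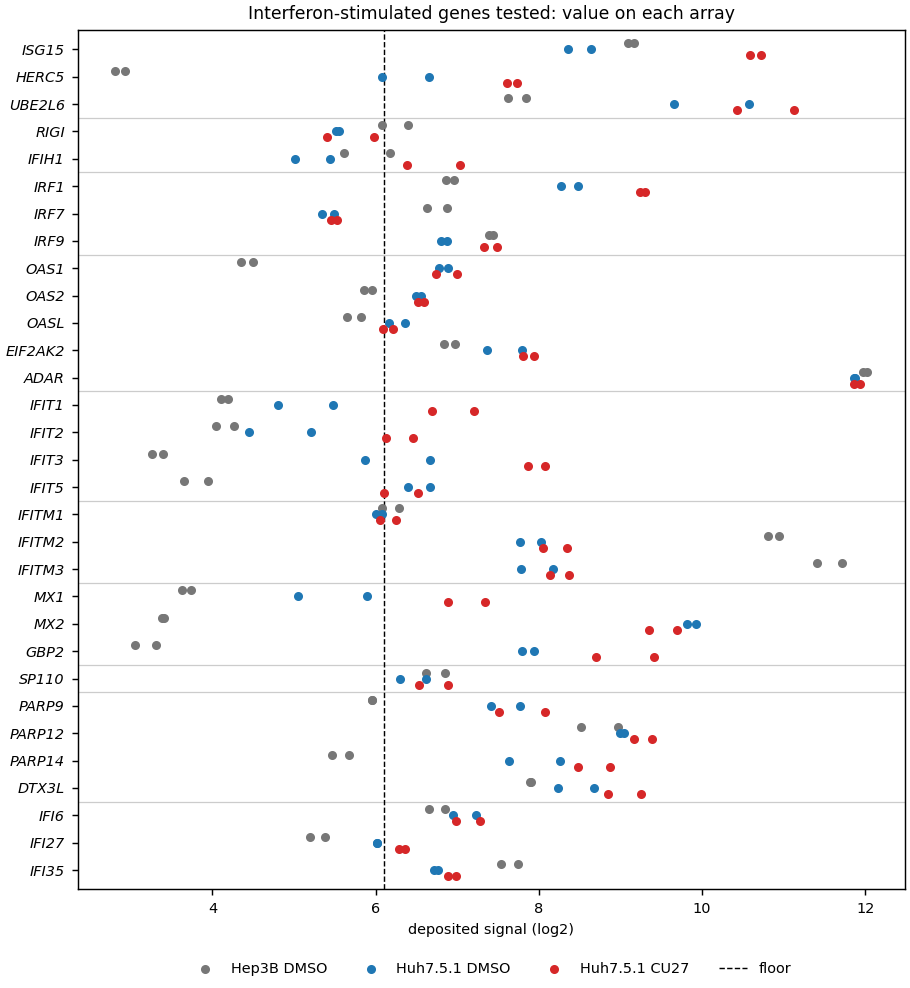
Deposited log2 signal (x axis) of each tested member (rows, grouped by role) on each of the 6 arrays (points, coloured by group), with the floor of 6.11 as a dashed line. For ISG15, IFIT1, IFIT3 and MX1 both CU27 points lie to the right of both Huh7.5.1 DMSO points, and for IFITM2 and IFITM3 the Hep3B points lie furthest to the right.

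ISG15 is a small ubiquitin-like protein that is joined to newly made proteins during the interferon response. Its log2 signal was 8.64 and 8.35 with DMSO and 10.59 and 10.72 with CU27. Both CU27 arrays lay far above both DMSO arrays, a gap many times that between replicates. The difference was 2.16 ± 0.15 (SE, n = 2 arrays per group), a 4.47-fold rise (limma adjusted p = 0.000307), and it had the largest value of any member. HERC5, the main ligase that attaches ISG15 to its targets, went from 6.66 and 6.08 to 7.73 and 7.61. It rose by 1.30 ± 0.21, or 2.47-fold (limma adjusted p = 0.00372). UBE2L6, the conjugating enzyme between the activating enzyme and HERC5, was not called, and its arrays overlapped, at 10.58 and 9.65 with DMSO against 11.12 and 10.43 with CU27. Its difference was 0.66 ± 0.30 (limma adjusted p = 0.148). Of 15 alternatives 13 left UBE2L6 uncalled. Without DMSO replicate 1 the difference was 1.12. HERC6, a relative of HERC5, lay below the floor in all arrays.

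Of the 3 RNA sensors, IFIH1 rose, while RIGI and DHX58 lay below the floor in Huh7.5.1 and give no reading of a change. IFIH1 encodes MDA5, which binds long double-stranded RNA, and read 5.44 and 5.02 with DMSO and 7.04 and 6.38 with CU27. Its DMSO arrays lay below the floor and its CU27 arrays above it, so the rise is bounded as at least 1.52-fold. The fitted difference was 1.48 ± 0.28 (SE, n = 2 arrays in each group; limma adjusted p = 0.00647). The call was lost without DMSO replicate 2, where the difference was 1.27 with an adjusted p of 0.0585, and over its alternatives the adjusted p ran from 0.00266 to 0.0585. RIGI, whose product RIG-I binds short RNA with a triphosphate end, read 5.52 and 5.55 with DMSO and 5.98 and 5.41 with CU27. These arrays overlapped and all lay below the floor, and RIGI entered the test only through Hep3B. It was not called (limma adjusted p = 0.651). DHX58 encodes LGP2, the third receptor of the family, which lacks the signalling domains of the other two. It was below the floor in every array, at 4.24 to 4.76 with DMSO and 4.71 to 4.99 with CU27, and was not tested.

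Of the 3 measured transcription factors, IRF1 and IRF9 rose and IRF7 was not called. IRF1, a factor that interferon gamma induces and that can act without ISGF3, went from 8.48 and 8.27 to 9.24 and 9.30. The 4 arrays formed 2 tight pairs, and the difference was 0.90 ± 0.15, a 1.86-fold rise (SE, n = 2 arrays in each group; limma adjusted p = 0.00378). Of its other probe sets, 1 more was called, with a difference of 0.69. IRF9 is the DNA-binding subunit of ISGF3 and read 6.88 and 6.80 with DMSO and 7.48 and 7.33 with CU27. It rose by 0.57 ± 0.15, or 1.48-fold (limma adjusted p = 0.0233). That call was less stable: with the mean of its 4 probe sets the difference was 0.28 and the adjusted p 0.138. It was also lost when DMSO replicate 1, DMSO replicate 2 or CU27 replicate 1 was left out, with adjusted p of 0.0823, 0.145 and 0.0733. IRF7, which amplifies interferon production, lay below the floor in both Huh7.5.1 groups and was not called (limma adjusted p = 0.803).

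The IFIT proteins bind viral RNA and block its translation, and 3 of the 4 measured rose. IFIT1, which recognises RNA lacking the methyl marks of the host cap, went from 5.48 and 4.80 with DMSO to 7.21 and 6.69 with CU27. IFIT2, its partner in the same complex, went from 5.21 and 4.44 to 6.46 and 6.12. IFIT3, which stabilises IFIT1, went from 6.67 and 5.87 to 8.08 and 7.87. In each of the 3 both CU27 arrays lay above both DMSO arrays, and the DMSO arrays of IFIT1 and IFIT2 were below the floor. The differences were 1.81 ± 0.26 for IFIT1, 1.47 ± 0.26 for IFIT2 and 1.70 ± 0.25 for IFIT3 (SE, n = 2 arrays per group). Their limma adjusted p were 0.00231, 0.00556 and 0.00259. As folds these are at least 1.79 for IFIT1, at least 1.14 for IFIT2, and 3.26 for IFIT3. IFIT5, which lies beside IFIT1 in the genome and binds RNA with a phosphate end, differed by -0.22 ± 0.21 (limma adjusted p = 0.497). The IFIT3 probe set, like those of ISG15 and GBP2, is of a type that can also detect related transcripts, so these signals may include them.

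Of 3 tested large GTPases, MX1 and GBP2 rose. MX1, which traps viral nucleocapsids in the cytoplasm, read 5.90 and 5.05 with DMSO and 6.89 and 7.34 with CU27. Its rise was at least 2.00-fold, with a fitted difference of 1.64 ± 0.28 (SE, n = 2 arrays in each group; limma adjusted p = 0.00465). MX2, its neighbour and a restriction factor at the nuclear pore, was bright in Huh7.5.1 and not called, at -0.35 ± 0.16 (limma adjusted p = 0.147), although both CU27 arrays lay below both DMSO arrays. GBP2 belongs to the guanylate-binding proteins, which interferon gamma induces and which coat pathogen vacuoles. It went from 7.80 and 7.95 to 9.41 and 8.70, a 2.26-fold rise with a difference of 1.18 ± 0.23 (limma adjusted p = 0.00829). The CU27 arrays differed more from each other than the DMSO arrays did, and a second probe set of GBP2 was not called, with a difference of 0.47. GBP1 lay below the floor in all group means, at 5.05 and 5.13 with DMSO and 6.16 and 5.40 with CU27, and was not tested.

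PARP14, PARP9, PARP12 and DTX3L form a group of interferon-induced enzymes that attach ADP-ribose or ubiquitin. PARP14, an ADP-ribosyltransferase, read 8.26 and 7.64 with DMSO and 8.87 and 8.48 with CU27. It rose 1.65-fold by 0.72 ± 0.23, just past the threshold (SE, n = 2 arrays in each group; limma adjusted p = 0.0483). Of 16 alternatives 7 kept the call, and the adjusted p ran from 0.0123 to 0.314. Leaving out 1 array ended it for 5 of the 6 arrays, and without DMSO replicate 2 the difference was 0.41. DTX3L, the ubiquitin ligase that pairs with PARP9, lay just outside, at 0.59 ± 0.19 (limma adjusted p = 0.0540), and passed in 7 of 15 alternatives. PARP9 and PARP12 differed by 0.20 and 0.26 and were not called. Other probe sets of PARP9 and DTX3L were called, with differences of 0.79 and 0.69, so for this group the outcome depended on the probe set.

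The remaining members showed no call. EIF2AK2 encodes PKR, the kinase that halts translation when it binds double-stranded RNA, and read 7.79 and 7.37 with DMSO and 7.95 and 7.81 with CU27. Both CU27 arrays were higher by a small margin, and the difference was 0.30 ± 0.18 (SE, n = 2 arrays in each group; limma adjusted p = 0.258). The other probe set of EIF2AK2 differed by 0.53 and was not called (limma adjusted p = 0.0656 in the fit over probe sets), with an unadjusted p under 0.05. ADAR, which edits double-stranded RNA, differed by 0.03 ± 0.08 (limma adjusted p = 0.839). OAS1, OAS2 and OASL, of the synthetase family that activates RNase L, differed by 0.04, 0.03 and -0.12, and OAS3 lay below the floor. Of the 6 members in the OAS, PKR and ADAR group, 5 were tested and 0 called. The membrane proteins IFITM1, IFITM2 and IFITM3, which hinder fusion of virus and cell, differed by 0.11, 0.30 and 0.28, and 0 of the 3 was called. The IFI genes IFI6, IFI27 and IFI35 differed by 0.04, 0.30 and 0.20, also with 0 of 3 called. In these 3 groups 0 members reached an unadjusted limma p under 0.05 with the probe set used for the gene.

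A group of classical interferon targets was too dim to test in any of the 3 groups. Of 8 other antiviral effectors, 7 lay below the floor (BST2, RSAD2, SAMD9, SAMD9L, XAF1, TRIM21 and TRIM22), and the nuclear body protein SP110 was tested and not called, at 0.24 (limma adjusted p = 0.402). RSAD2, which encodes viperin, read 3.67 and 3.69 with DMSO and 3.58 and 3.56 with CU27. IFI44 and IFI44L were also below the floor in all arrays, at 3.88 to 4.24 with DMSO and 3.72 to 3.86 with CU27. A value below the floor does not show that a transcript is absent.

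**Figure D3:**
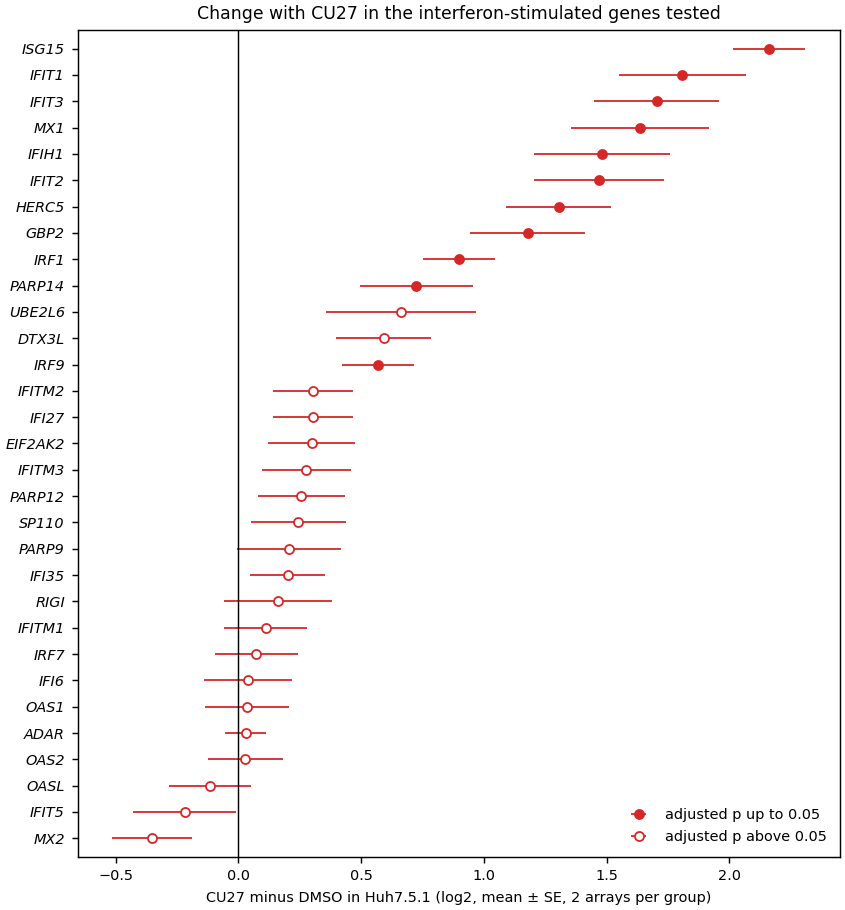
Log2 difference, CU27 minus DMSO in Huh7.5.1, on the x axis for the tested members (rows), with bars of 1 SE from limma, n = 2 arrays per group. Filled points mark the 11 members that rose, from IRF9 at 0.57 to ISG15 at 2.16, and 0 members fell.

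Many members are measured by several probe sets, which gives a second view of each gene. Of the 119 member probe sets 54 reached the floor. Of these 15 rose and 0 fell in limma (19 and 0 at an unadjusted p under 0.05), while over all 27836 tested probe sets 10.4% rose and 11.3% fell. Several probe sets were given for 29 members, and they are not independent, since they read the same RNA. PARP14 had 6 probe sets with differences from 0.31 to 0.94, 2 of them called in the fit over probe sets. The probe set used for the gene, at 0.72, was not called in that fit (limma adjusted p = 0.0583). IRF9 had 4, from 0.14 to 0.57, with 1 called. IRF1 had 4, from -0.04 to 0.90, with 2 called and the lowest below the floor.

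**Figure D4:**
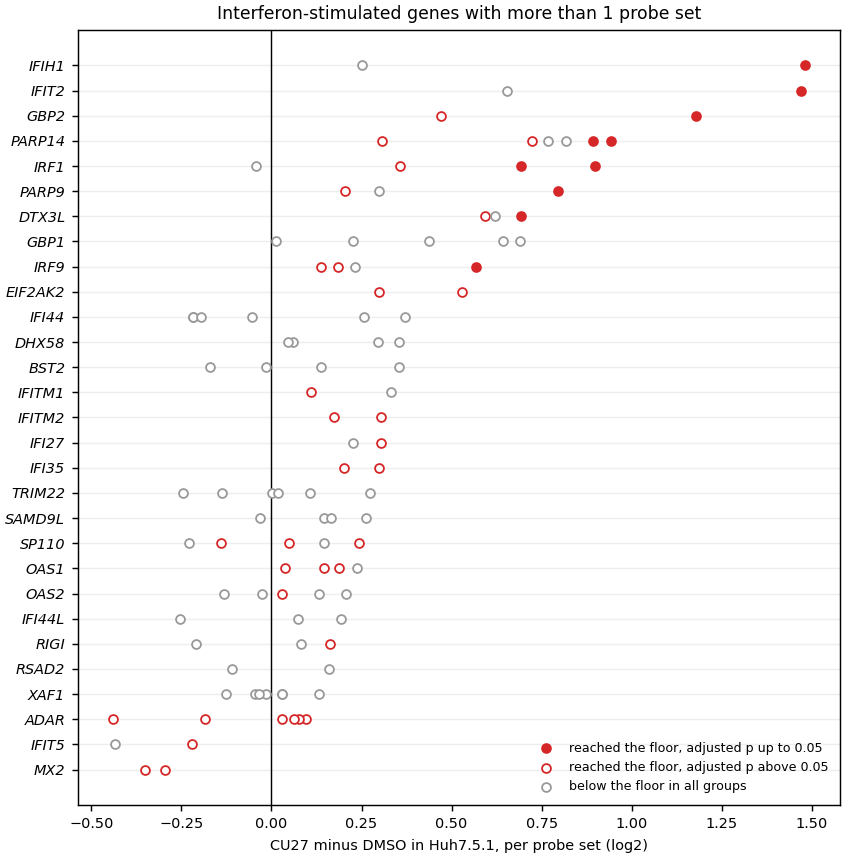
Log2 difference, CU27 minus DMSO in Huh7.5.1, for every probe set of the members with more than 1 (points on the x axis, genes in rows). Filled points passed the test, open red points reached the floor without a call and grey points lay below it, and the spread within PARP14 runs from 0.31 to 0.94 and within IRF1 from -0.04 to 0.90.

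The replicates of Huh7.5.1 differed in a way that touched most members. Replicate 1 was the higher of the pair for 24 of 31 tested members with DMSO (77.4%) and again for 24 of 31 with CU27. Over all tested genes the shares were 46.5% and 40.6%. The median difference of replicate 1 minus replicate 2 over the members was 0.27 with DMSO and 0.20 with CU27, against -0.02 and -0.06 over all genes. In Hep3B the corresponding share was 14 of 31 members (45.2%), against 56.2% of all genes. This spread enters the SE of every member, and the part of a shared culture or array condition in it was not tested.

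Members also lie next to each other in the genome. By the order of genes in RefSeq, 22 members form 12 adjoining pairs, among them IFIT2 with IFIT3, IFIT1 with IFIT5, MX2 with MX1, HERC6 with HERC5, PARP9 with DTX3L and GBP1 with GBP2. IFIT1 and MX1 were called while their neighbours IFIT5 and MX2 were not, and the difference between neighbours was not tested. IFIT2 and IFIT3 both rose.

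The genes that act upstream were examined from companion lists. Of 17 measured interferon ligands 0 reached the floor, with values from 2.26 to 4.94 over all arrays. IFNB1, the type I interferon most cells make first, read 3.21 and 3.38 with DMSO and 3.12 and 3.09 with CU27. IFNL1, a type III interferon, read 4.48 and 4.56 with DMSO and 4.58 and 4.39 with CU27. The ligand arrays overlapped or lay close together, all below the floor, at the single time of 48 h. Among 8 tested receptors and kinases 2 rose, JAK1 by 0.41 and IFNGR2, a subunit of the interferon gamma receptor, by 0.42 (limma adjusted p of 0.0306 and 0.0383), and 0 fell. At an unadjusted p under 0.05, 3 were higher, IL10RB being the added one, and 0 were lower. Of 16 alternatives, 11 kept the call of JAK1 and 9 that of IFNGR2, with highest adjusted p of 0.175 and 0.150, and each was lost when CU27 replicate 2 or either DMSO array was left out. IFNAR1 and IFNAR2, the type I receptor subunits, differed by 0.11 and 0.23 and were not called.

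Of 9 tested sensing genes outside the members, 0 rose and 2 fell in limma, and at an unadjusted p under 0.05 TBK1 and TRIM25 were the 2 that were higher. TRAF3, an adaptor between MAVS and the kinases, fell by 0.80 (limma adjusted p = 0.00492). TANK, which binds TRAF3, fell by 0.72 (limma adjusted p = 0.0217). Both calls were lost without DMSO replicate 2, that of TRAF3 also with the mean of its probe sets and that of TANK also without CU27 replicate 2, with adjusted p up to 0.357 and 0.159. MAVS and IRF3 differed by 0.18 and 0.46 and were not called, and TLR3, the endosomal sensor of double-stranded RNA, lay below the floor at 2.52 to 3.58. Of 8 tested genes that restrain the pathway, the phosphatase PTPN6 and the SUMO ligase PIAS4 rose by 0.66 and 0.50, and the phosphatase PTPN11 fell by 0.61. Of 16 alternatives 14, 10 and 13 kept these calls, and each was lost without DMSO replicate 2.

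A longer list of 46 other interferon-stimulated genes had 31 tested, of which 5 rose and 3 fell. These counts are near the shares of all tested genes given above, and at an unadjusted p under 0.05 there were 9 higher and 5 lower. DDX60, a helicase linked to RNA sensing, read 5.51 and 5.08 with DMSO and 8.31 and 7.79 with CU27, a rise of at least 3.85-fold (limma adjusted p = 0.00037). SP100, a nuclear body protein, rose 3.84-fold by 1.94 ± 0.17 (limma adjusted p = 0.000394). GBP3 rose at least 1.58-fold, and LAMP3 fell by 2.13, at least 1.47-fold (limma adjusted p of 0.00221 and 0.000394). The wider list therefore held rises as large as those of the members together with falls, and most of its tested genes, 23, were not called. Antigen presentation genes that interferons also induce had 6 of 12 tested rise and 0 fall in limma, against 12.6% and 12.1% of all tested genes. At an unadjusted p under 0.05, 10 of them were higher and 0 lower. PSMB9, a subunit of the immunoproteasome, rose by 2.57, at least 4.21-fold, and TAP1, the peptide transporter, by 2.15, at least 3.13-fold (limma adjusted p of 0.000663 and 0.000394). Like DDX60 and GBP3, these genes reached the floor only in the CU27 group, so their entry to the test required a high CU27 level. LAMP3 reached it only in the Huh7.5.1 DMSO group, so its entry required a high DMSO level. TAPBP and HLA-B rose by 0.79 and 0.63, calls that 13 of 16 and 8 of 15 alternatives kept. Averaging the probe sets of the gene, or leaving out DMSO replicate 2, ended both.

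Markers of other cell types were set beside these rises. CD68, a lysosomal protein of macrophages that other cells also make, rose by 2.25, and LYZ differed by -0.84 without a call (limma adjusted p of 0.000394 and 0.0657). CD14 lay below the floor in all Huh7.5.1 arrays. The summed linear signal of the 9 leukocyte markers was 3939 to 4034 with DMSO and 2361 to 3427 with CU27. Of the 9, LYZ and CD68 lay above the floor in every array, and CD4 passed it only on 1 CU27 array, at 6.14. PTPRC, CD3E, ITGAM, CD163 and FCGR3A stayed below it in every array. The summed signal of the 7 hepatocyte markers was 80552 to 83171 with DMSO and 53263 to 68749 with CU27, and APOB, TTR and SERPINA1 fell. The part of these shifts in the members' changes was not tested.

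Between the lines in DMSO, the members differed in both directions. The comparison shares the Huh7.5.1 DMSO arrays with the comparison above, so the values of a member in the pair are not independent. On the deposited scale 18 members were higher in Huh7.5.1 and 7 lower, where 41.0% of all tested genes were higher and 22.9% lower. The scale matters here: the median of all tested genes was 0.22 higher in Huh7.5.1 as deposited, -0.19 with each array centred on its median and -0.08 after quantile normalization. With centring and also with quantile normalization 11 members were higher and 12 lower. The shares of genes were 23.2% and 40.8% with centring, and 27.2% and 35.2% with quantile normalization. The 12 include TRIM21, which was too dim to test on the deposited scale. They also include IFIH1, whose line means were both below the floor on that scale. Of the 31 tested members, 11 were called higher and 7 lower under all 3 scalings, against 23.2% and 22.9% of all tested genes. The count of lower members was thus near the share of all genes. MX1, IFIT1, IFIT2, IFI27 and IFIH1 had means below the floor in both lines and entered the test only through the CU27 group. With genes below the floor in both lines left out, a count made after the data were seen, 14 of 26 members were higher and 7 lower as deposited, and 10 and 7 under all 3 scalings, against 23.3% and 23.4% of 11159 genes. The median over the 44 measured members was 0.55 as deposited, and 0 with group means raised to the floor, against 0.26 and 0 over all genes. Beside this, the 3′ minus 5′ difference of the ACTB control probe sets, a measure of RNA integrity, was 2.28 and 1.60 in Hep3B and 0.94 and 1.06 in Huh7.5.1 DMSO. Its part in the result was not tested, and line and any difference in culture medium or array batch cannot be told apart.

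The members higher in Huh7.5.1 under all 3 scalings were HERC5, UBE2L6, IRF1, OAS1, IFIT3, IFIT5, MX1, MX2, GBP2, PARP9 and PARP14. MX1 is among these by the test, but lay below the floor in both lines. MX2 had the largest difference: it read 3.41 and 3.38 in Hep3B and 9.92 and 9.82 in Huh7.5.1. It was below the floor in Hep3B and bright in Huh7.5.1, at least 13.6-fold higher, with a log2 difference of 6.48 ± 0.16 (SE, n = 2 arrays in each group; limma adjusted p = 1.96e-08). The size depended on the probe set, and the other one of MX2 differed by 2.67, from 3.61 to 6.29. GBP2 read 3.31 and 3.05 in Hep3B against 7.80 and 7.95, at least 3.40-fold higher (limma adjusted p = 6.54e-07). UBE2L6 read 7.62 and 7.85 in Hep3B against 10.58 and 9.65, a 5.20-fold difference (limma adjusted p = 0.000156). PARP14 read 5.67 and 5.47 against 8.26 and 7.64, and PARP9 5.95 in both Hep3B arrays against 7.77 and 7.41. For this pair the difference was at least 3.59-fold and at least 2.79-fold (limma adjusted p of 2.92e-05 and 0.000165). For PARP9 it depended on the probe set, since another tested one differed by 0.33 and was not called. IRF1 read 6.86 and 6.96 in Hep3B against 8.48 and 8.27, or 2.75-fold (limma adjusted p = 3.82e-05). OAS1 read 4.49 and 4.35 against 6.78 and 6.89, at least 1.65-fold (limma adjusted p = 4.94e-06). In each gene given here by array the lines did not overlap, which is no separate support, since the calls rest on the same arrays.

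HERC5, IFIT3 and IFIT5 were below the floor in Hep3B and above it in Huh7.5.1, with log2 differences of 3.50, 2.94 and 2.73, or at least 1.20-fold, 1.12-fold and 1.34-fold. HERC5, IFIT3, GBP2, IRF1 and PARP14 were thus higher in Huh7.5.1 than in Hep3B with DMSO and higher again with CU27, by separate tests that share the DMSO arrays.

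The members lower in Huh7.5.1 under all 3 scalings were ISG15, RIGI, IRF7, IRF9, IFITM2, IFITM3 and IFI35. IFITM3 read 11.41 and 11.71 in Hep3B and 8.17 and 7.78 in Huh7.5.1, a log2 difference of -3.58 ± 0.18 (SE, n = 2 arrays in each group; limma adjusted p = 6.68e-07). IFITM2 read 10.81 and 10.94 in Hep3B and 8.03 and 7.76 in Huh7.5.1, a 7.89-fold difference (limma adjusted p = 1.04e-06). Their sequences are alike and both probe sets are of a type that can detect several transcripts, so the signals of the pair may be shared. IFI35 read 7.75 and 7.54 in Hep3B and 6.71 and 6.76 in Huh7.5.1, or 1.88-fold lower (limma adjusted p = 0.00076), but its other probe set differed by -0.26 and was not called. IRF7 read 6.63 and 6.87 in Hep3B and 5.34 and 5.49 in Huh7.5.1, at least 1.56-fold lower (limma adjusted p = 0.000145). ISG15 read 9.09 and 9.17 in Hep3B, 1.55-fold above Huh7.5.1 (limma adjusted p = 0.00463). With CU27 its level in Huh7.5.1, 10.59 and 10.72, lay above both Hep3B DMSO arrays.

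RIGI read 6.40 and 6.08 in Hep3B and 5.52 and 5.55 in Huh7.5.1. The lines did not overlap, and Hep3B lay near the floor, so the difference is at least 1.10-fold, with a log2 value of -0.71 ± 0.22 (SE, n = 2 arrays in each group; limma adjusted p = 0.0197). The call was lost without Huh7.5.1 DMSO replicate 1 or replicate 2, with adjusted p of 0.0779 and 0.0683. The known change in RIG-I of the Huh7.5 lineage lies in the protein, and probe signals do not read it. IFIH1 read 6.18 and 5.62 in Hep3B and 5.44 and 5.02 in Huh7.5.1, and both line means lay below the floor, so no difference is read from it. DHX58 read 4.56 in both Hep3B arrays and 4.76 and 4.24 in Huh7.5.1, all below the floor. IRF9 was 1.49-fold lower in Huh7.5.1 (limma adjusted p = 0.00785), a call that was lost with the mean of its probe sets (-0.22, adjusted p of 0.155) and without Huh7.5.1 DMSO replicate 2 (adjusted p of 0.0554).

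The other 7 higher members, OAS2, OASL, EIF2AK2, IFIT1, IFIT2, DTX3L and IFI27, lost the call with centring and with quantile normalization. Of these, IFIT1, IFIT2 and IFI27 lay below the floor in both lines, so no difference is read from them. EIF2AK2 differed by 0.68 ± 0.18 as deposited (limma adjusted p = 0.00888), by 0.26 with centring and by 0.30 after quantile normalization. ADAR, IFITM1, SP110, PARP12 and IFI6 were not called as deposited, with differences from -0.28 for SP110 to 0.34 for IFI6. ADAR, IFITM1 and SP110 were called lower with centring, at -0.55, -0.56 and -0.69, and also with quantile normalization. Other probe sets differed: 2 of the 6 of ADAR were higher in Huh7.5.1, at 2.12 and 2.10, and 1 of SP110 was lower at -1.55. Of all 25 calls between the lines, 15 held in every alternative.

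**Figure D5:**
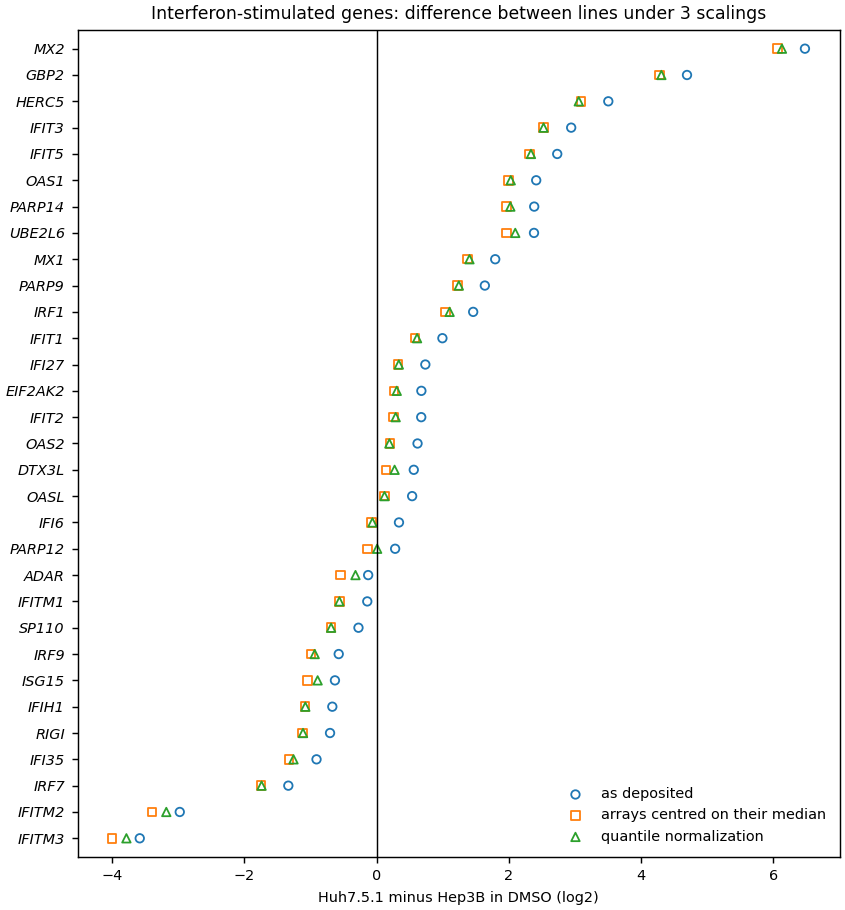
Log2 difference, Huh7.5.1 minus Hep3B in DMSO, on the x axis for the tested members (rows), as deposited (circles), with centred arrays (squares) and after quantile normalization (triangles), each a difference of means of 2 arrays per group. MX2 at 6.48 and IFITM3 at -3.58 on the deposited scale mark the ends, and both keep their side of 0 under all 3 scales.

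Upstream genes also differed between the lines. JAK1 was 3.21-fold higher in Huh7.5.1 and IFNGR2 2.56-fold lower (limma adjusted p of 4e-06 and 2.26e-05), both under all 3 scalings. TRIM25, a ubiquitin ligase of RIG-I signalling, and the kinase TBK1 were higher by 1.53 and 1.03, and TICAM1, the adaptor of TLR3, was lower at -2.02 (limma adjusted p of 0.000164, 0.00362 and 7.93e-06), again under all 3. CXCL10, a chemokine that interferons induce, was at least 3.97-fold higher in Huh7.5.1 (limma adjusted p = 3.88e-05), and with CU27 it differed by -0.98 without a call (adjusted p = 0.0636). Of the 31 other interferon-stimulated genes tested, 15 were higher and 6 lower under all 3 scalings, against 23.2% and 22.9% of all tested genes. The lower count was thus near the share of all genes. DDX60 and GBP3 are among the higher by the test, but lay below the floor in both lines.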

How the data were processed

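The 6 arrays used, 2 per group, came from total RNA, amplified and biotinylated with a 3′ labelling kit per the labels. The values were used as deposited by the authors and are taken to be log2 signals, which was read from their range. MAS5 is named without a version in the submitters' processing notes. Any scaling or centring of the arrays is stated nowhere in these sources and stays unknown. Scanner files were not analysed here. Of the 8 value columns, 2 (Hep3B CU27) were left out.

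Of 49395 probe sets, 102 controls were dropped. The platform annotation gave 44988 probe sets 1 symbol, 1832 several and 2473 none, and 3 of those with several held a member. Each gene was read from its probe set with the highest mean over the 6 arrays. Genes with a group mean at or above the floor (the 50th percentile, log2 6.11) were tested. "At least" folds replace a group mean below the floor by the floor, and hold for the probe set used.

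Group means were fitted with limma 3.58.1 in R 4.3.3 (lmFit, contrasts, eBayes with trend; 3 residual and 5.87 prior degrees of freedom). Two-sided p-values were adjusted by Benjamini-Hochberg over 11383 genes and called up to 0.05. Permuting 2 arrays against 2 exactly gives no p below 0.333. The labels call the replicates biological but do not say how the cultures were separated, so p-values measure the spread between these arrays. The procedure was tested on simulated data.

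The members and lists were chosen with earlier results of these data known. Values in every array were given for members past the test (up to 12 by size per comparison, group means raised to the floor) and for ISG15, RIGI, IFIH1, DHX58, IRF9, IRF1 and EIF2AK2. From each companion list up to 4 genes past the test were named, with fixed upstream genes. GBP1, RSAD2, IFI44 and IFI44L were given by array although outside this rule, and were chosen after their values were seen. Alternatives were other scalings, floors, probe set rules, spread models, left-out arrays and the replicate number as a block. Motifs were counted on both strands of RefSeq windows (GRCh38.p14), which give the coordinates.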

Additional observations from a re-analysis of the deposited data

How the results depend on the processing

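With CU27 the count of members that rose was 11, and 8 to 13 over the alternatives, with 0 falling in each: 8 to 12 without single arrays, 12 with centred or quantile-normalized arrays, 8 without the probe sets that can detect several transcripts, and 13 with the replicate number as a block. Replicates shared only a number in the labels (correlation 0.179 of same-numbered deviations over 11383 genes); with this block 1612 genes rose and 1570 fell. The block also called UBE2L6 and DTX3L, with adjusted p of 0.0104 and 0.0141. No paired analysis was possible between the lines because their groups share only replicate number 2. All genes that rose were 454 to 1610 without single arrays, and those that fell 446 to 1313. The lowest counts came without DMSO replicate 2; without DMSO replicate 1, 793 rose and 846 fell, and without CU27 replicate 2, 677 and 840. Between the lines, members higher fell from 18 to 11 with centring, 11 with quantile normalization and 10 without the probe sets that can detect several transcripts, and members lower went from 7 to 12, 12 and 3. All genes higher were 2648, 3107 and, with no floor, 7517, and lower 4659 with centring and 4016 with quantile normalization. Single arrays left out gave 14 to 18 members higher and 5 to 8 lower, and 3802 to 4817 and 2038 to 2750 genes. RIGI with CU27 was -0.12 to 0.45 without single arrays, turning without CU27 replicate 1, with all these arrays below the floor. Of 227 values of 15 named members with CU27, both called and uncalled, 203 kept the outcome of the main fit. A call was lost in 14 and gained in 9, and 1 value, of the uncalled RIGI, changed sign. Of 348 values of the 25 members called between the lines, 314 kept the call and 34 lost it. The causes were not tested. With 2 arrays per group, dim probe sets near the floor set the limit of what could be tested.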
